A study of Mus musculus with 22 samples.

Results

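RNA of 10 mouse genes for the use of short-chain fatty acids and ketone bodies was followed through the nucleus accumbens, the ventral striatal region known for its role in reward. The genes were chosen by function from the 24061 genes of the count table. Their choice was made with earlier results of these data known. They are the carriers Slc16a1 and Slc16a7, the acetate-activating enzymes Acss1 and Acss2, the ketone enzymes Oxct1, Bdh1 and Acat1, and the propionate enzymes Mut, Pcca and Pccb. The low-count filter kept 14564 genes, among them all 10. The 22 bulk RNA libraries came from male C57BL/6J mice aged 7 to 9 weeks, conventionally raised and housed in groups without specific pathogens. Morphine groups held 5 libraries from antibiotic mice and 5 from water mice, and saline groups 6 from antibiotic mice and 6 from water mice. Antibiotic mice carried a microbiome depleted with antibiotics that are not absorbed from the gut, and water mice had their normal microbiome. Morphine was given at 20 mg/kg per day for 7 days, and the other groups received saline. The labels give polyA RNA as the molecule and total RNA as the input of the cDNA, and which was sequenced is not settled here. They do not name the antibiotics or say whether a library held 1 animal or a pool. Each p-value thus sets a group difference against the spread between these libraries.

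Acetate, propionate and butyrate are made by gut bacteria that ferment fibre, and ketone bodies are made by the liver from fatty acids. Monocarboxylate carriers bring both kinds of fuel across the blood-brain barrier and into brain cells. Inside the cell each is joined to coenzyme A: acetate directly, ketone bodies by transfer from succinyl-CoA, and propionate on a route through methylmalonyl-CoA to the citric acid cycle. The antibiotic groups address whether transcripts for the use of these fuels differ when the bacteria that make some of them are depleted.

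Promoter sequences are shown for 3 genes that were lower in antibiotic mice given morphine (Acss1, Acss2 and Oxct1) and for Pccb, which was not called in any comparison, so that members that moved can be set beside one that did not. Each is the 250 bases before the gene's start, 5′ to 3′ on the gene's own strand, from RefSeq on GRCm38.p6. Capitals mark GGGCGG, the GC box bound by Sp factors, or its reverse complement CCGCCC.
Acss1 promoter, chr2:150668241-150668490 on the minus strand: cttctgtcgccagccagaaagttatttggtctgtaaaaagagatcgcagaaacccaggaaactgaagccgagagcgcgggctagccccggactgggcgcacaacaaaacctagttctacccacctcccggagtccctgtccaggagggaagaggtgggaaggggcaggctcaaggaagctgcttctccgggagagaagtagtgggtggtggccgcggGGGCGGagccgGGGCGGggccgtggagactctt
Acss2 promoter, chr2:155517793-155518042 on the plus strand: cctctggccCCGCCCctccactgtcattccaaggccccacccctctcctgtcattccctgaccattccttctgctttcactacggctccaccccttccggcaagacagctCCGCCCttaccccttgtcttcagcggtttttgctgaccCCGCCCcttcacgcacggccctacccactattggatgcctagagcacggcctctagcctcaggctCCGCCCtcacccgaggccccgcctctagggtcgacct
Oxct1 promoter, chr15:4026178-4026427 on the plus strand: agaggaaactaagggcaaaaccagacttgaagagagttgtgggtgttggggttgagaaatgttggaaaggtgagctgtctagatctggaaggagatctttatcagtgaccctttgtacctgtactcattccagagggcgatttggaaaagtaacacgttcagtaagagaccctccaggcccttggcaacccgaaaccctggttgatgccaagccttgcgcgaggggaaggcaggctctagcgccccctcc
Pccb promoter, chr9:101034885-101035134 on the minus strand: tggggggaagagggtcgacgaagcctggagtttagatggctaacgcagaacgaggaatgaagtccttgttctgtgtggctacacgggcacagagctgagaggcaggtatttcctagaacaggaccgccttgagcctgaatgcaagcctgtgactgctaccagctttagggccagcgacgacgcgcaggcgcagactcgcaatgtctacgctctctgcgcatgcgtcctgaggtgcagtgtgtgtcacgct
The Acss1 window held 2 GC boxes and the Acss2 window 4, while the Oxct1 and Pccb windows held 0. Among 32851 promoter windows of this length, 32.7% held the motif on either strand. The E-box CACGTG, which does not overlap it, was found in 6.02% of all windows and in 0 of these 4. The windows of Acss1, Acss2, Oxct1 and Pccb were 61.6%, 64.0%, 52.0% and 57.6% G and C, against a median of 52.4%. The table held a promoter for 7 of the 10 genes and none for Slc16a7, Mut and Acat1. The motif could thus not be looked for in Slc16a7 and Mut, which were also lower in antibiotic mice given morphine. Of the 3 shown genes that fell, 2 thus held the motif in this window and 1 did not. Among the other members with a window that were not called, Slc16a1 held 1 GC box, Pcca held 2 in 1 of its windows and 0 in another, and Bdh1 held 0. Slc16a1 also held 1 E-box CACGTG, and the windows of Pcca and Bdh1 held 0.

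Total counts ran from 11789713 to 19755139 per library, of which 9357299 to 15330947 were assigned to genes. The members had between 30 and 5339 counts in a library. All 10 markers of striatal projection neurons were detected, with a summed level of 3113 to 7384 CPM (CPM, gene counts scaled to a common library size with TMM factors). Markers of cortical projection neurons, which lie near the accumbens, summed to 24.0 to 1490 CPM, and the nuclear RNA Malat1 ran from 164 to 2463 CPM. For the length slope, each gene's log2 CPM in a library was taken as a deviation from its mean over the 22 libraries. The slope of these deviations on log2 transcript length ran from -0.078 to 0.055, so its sign is relative to the average library. In bulk RNA, fewer cells of a type and less RNA per cell cannot be told apart.

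Per transcript length, the ketone enzymes Oxct1 and Acat1 stood highest and the carriers lowest. Oxct1, which makes acetoacetate usable by giving it coenzyme A, averaged 86.7 ± 11.3 CPM per kb (SD, n = 22 libraries). Acat1, the mitochondrial thiolase that splits acetoacetyl-CoA into acetyl-CoA, averaged 33.9 ± 1.37 CPM per kb. Pccb, the beta subunit of propionyl-CoA carboxylase, averaged 29.4 ± 1.31, and Bdh1, which interconverts beta-hydroxybutyrate and acetoacetate, 18.9 ± 1.23 CPM per kb. No 2 of these 4 genes that were neighbours in the order had overlapping ranges over the libraries. Next came Pcca, the alpha subunit of the same carboxylase, at 13.9 ± 1.05, then Mut, the cobalamin-dependent methylmalonyl-CoA mutase, at 13.5 ± 1.45 CPM per kb. Acss2, the acetyl-CoA synthetase of cytosol and nucleus, stood at 13.3 ± 2.11 and its mitochondrial counterpart Acss1 at 9.87 ± 2.23 CPM per kb. Slc16a1, encoding the carrier MCT1 of endothelium and glia, averaged 6.91 ± 0.799 CPM per kb. From Pcca down to Slc16a1 each gene's range overlapped that of the next. Slc16a7, encoding the neuronal high-affinity carrier MCT2, was lowest at 0.486 ± 0.129 CPM per kb, and its whole range lay under that of Slc16a1.

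**Figure D1:**
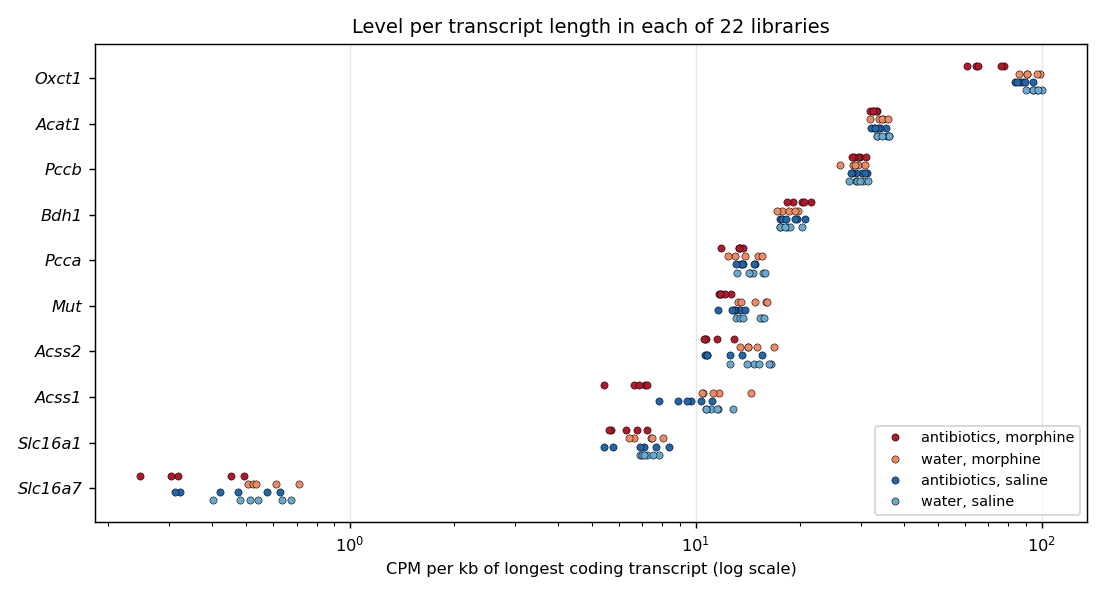
Level of each of the 10 genes in CPM per kb of its longest coding transcript (x axis, log scale), with each library a point coloured by group and genes ordered by their mean over 22 libraries. Oxct1 is at the top with a mean of 86.7 CPM per kb and Slc16a7 at the bottom with 0.486.

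The members also differed in how much they varied among libraries of a group. Acat1 had a within-group SD of 0.051 on the log2 scale, smaller than that of all but 0.858% of the genes tested, whose median was 0.149. Pccb stood at the 5.65 percentile of these SDs, Bdh1 at 16.6 and Oxct1 at 19.8. Slc16a7, with the fewest counts, stood at 84.7. The same size of change was therefore easier to call for Acat1 and Pccb than for Slc16a7.

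The comparison of antibiotic with water mice under morphine asked whether depletion of the microbiome alters these transcripts in animals that receive the opioid. Acss1, Acss2, Oxct1, Mut and Slc16a7 fell, by 18.6% to 42.8%, and the other 5 genes were not called. The 5 that fell came from each of the 4 roles: 1 of 2 carriers, both acetate enzymes, 1 of 3 ketone enzymes and 1 of 3 propionate enzymes. In the edgeR quasi-likelihood test with Benjamini-Hochberg adjustment over all genes, 5 of 10 members were lower and 0 higher, where 9.58% of all genes were lower, 8.42% higher and 18% called either way. The median log2 change was -0.24 over the members and 0.00 over all genes tested.

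Among the carriers, Slc16a7 had 2.71, 5.43, 3.49, 3.34 and 4.98 CPM in antibiotic mice given morphine (libraries 1 to 5), against 5.58, 5.76, 7.82, 5.88 and 6.71 CPM in water mice given morphine (libraries 2 to 6). All antibiotic libraries lay below all water libraries, with libraries 2 and 5 of the antibiotic mice just under the lowest water value. The log2 change was -0.67 ± 0.197 (SE; adjusted p = 0.0209), the lowest-count call of the set. The call was lost when water library 4 or antibiotic library 1, 3 or 4 was left out (adjusted p between 0.0531 and 0.0662). Over all 30 alternatives the adjusted p ran from 0.0082 to 0.0811. Summed cortical and striatal markers were 1198 and 3896 CPM in water library 4, and 999 and 4740 CPM in antibiotic library 1. They were 165 and 5542 CPM in antibiotic library 3, and 680 and 4751 CPM in antibiotic library 4. The part of these sums was not tested. Slc16a1 had 32.0, 25.1, 27.8, 24.9 and 29.9 CPM in antibiotic mice given morphine, against 35.5, 29.2, 32.8, 28.3 and 33.1 CPM in water mice given morphine. These groups overlapped, and the log2 change of -0.18 had a 95% interval of -0.38 to 0.01 (adjusted p = 0.194).

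Both enzymes that turn acetate into acetyl-CoA fell. Acss1 had 19.6, 25.8, 23.9, 24.8 and 26.1 CPM in antibiotic mice given morphine, against 42.3, 37.9, 40.7, 37.6 and 52.2 CPM in water mice given morphine. The highest antibiotic library was far below the lowest water library. The log2 change was -0.80 ± 0.096 (adjusted p = 5.14e-06), which placed Acss1 at rank 37 of the 14564 genes by p. Acss2 had 33.6, 31.1, 31.4, 30.9 and 37.7 CPM in antibiotic mice given morphine, against 39.4, 44.1, 49.2, 41.4 and 41.6 CPM in water mice given morphine. Again no libraries overlapped, though antibiotic library 5 came close to water library 2. Its log2 change was -0.39 ± 0.096 (adjusted p = 0.00631).

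Of the ketone enzymes, Oxct1 fell. Its levels were 228, 274, 215, 231 and 269 CPM in antibiotic mice given morphine, against 302, 320, 348, 341 and 320 CPM in water mice given morphine. The groups did not overlap, and antibiotic libraries 2 and 5 stood above the other 3 of their group. The log2 change was -0.42 ± 0.059 (adjusted p = 3.52e-05). Bdh1, which acts a step before Oxct1, had 67, 63.2, 59.5, 64.2 and 57.2 CPM in antibiotic mice given morphine, against 55.3, 58.2, 61.8, 60.5 and 53.4 CPM in water mice given morphine. These values overlapped (log2 change 0.10, 95% interval -0.01 to 0.22, adjusted p = 0.222). Acat1, the enzyme after Oxct1, averaged 111 ± 2.01 CPM in antibiotic mice given morphine and 116 ± 4.98 CPM in water mice given morphine (SD, n = 5 each). Its log2 change of -0.06 had an interval of -0.14 to 0.02 (adjusted p = 0.294).

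On the propionate route, Mut fell and both subunits of the carboxylase upstream of it were not called. Mut had 46.3, 43.5, 44.5, 42.8 and 43.1 CPM in antibiotic mice given morphine, against 48.7, 54.4, 49.6, 58.5 and 59.0 CPM in water mice given morphine. The antibiotic values lay close together and all below the water values, which spread more widely. The log2 change was -0.30 ± 0.065 (adjusted p = 0.00245). Pcca averaged 34 ± 1.92 CPM in antibiotic mice given morphine and 36.2 ± 3.47 CPM in water mice given morphine (log2 change -0.09, interval -0.23 to 0.04, adjusted p = 0.352). Pccb averaged 68.4 ± 2.48 CPM in antibiotic mice given morphine and 66.7 ± 3.95 CPM in water mice given morphine (log2 change 0.04, interval -0.06 to 0.13, adjusted p = 0.659). All 5 genes that fell had groups without overlap, as did 13.1% of all genes tested in this comparison.

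**Figure D2:**
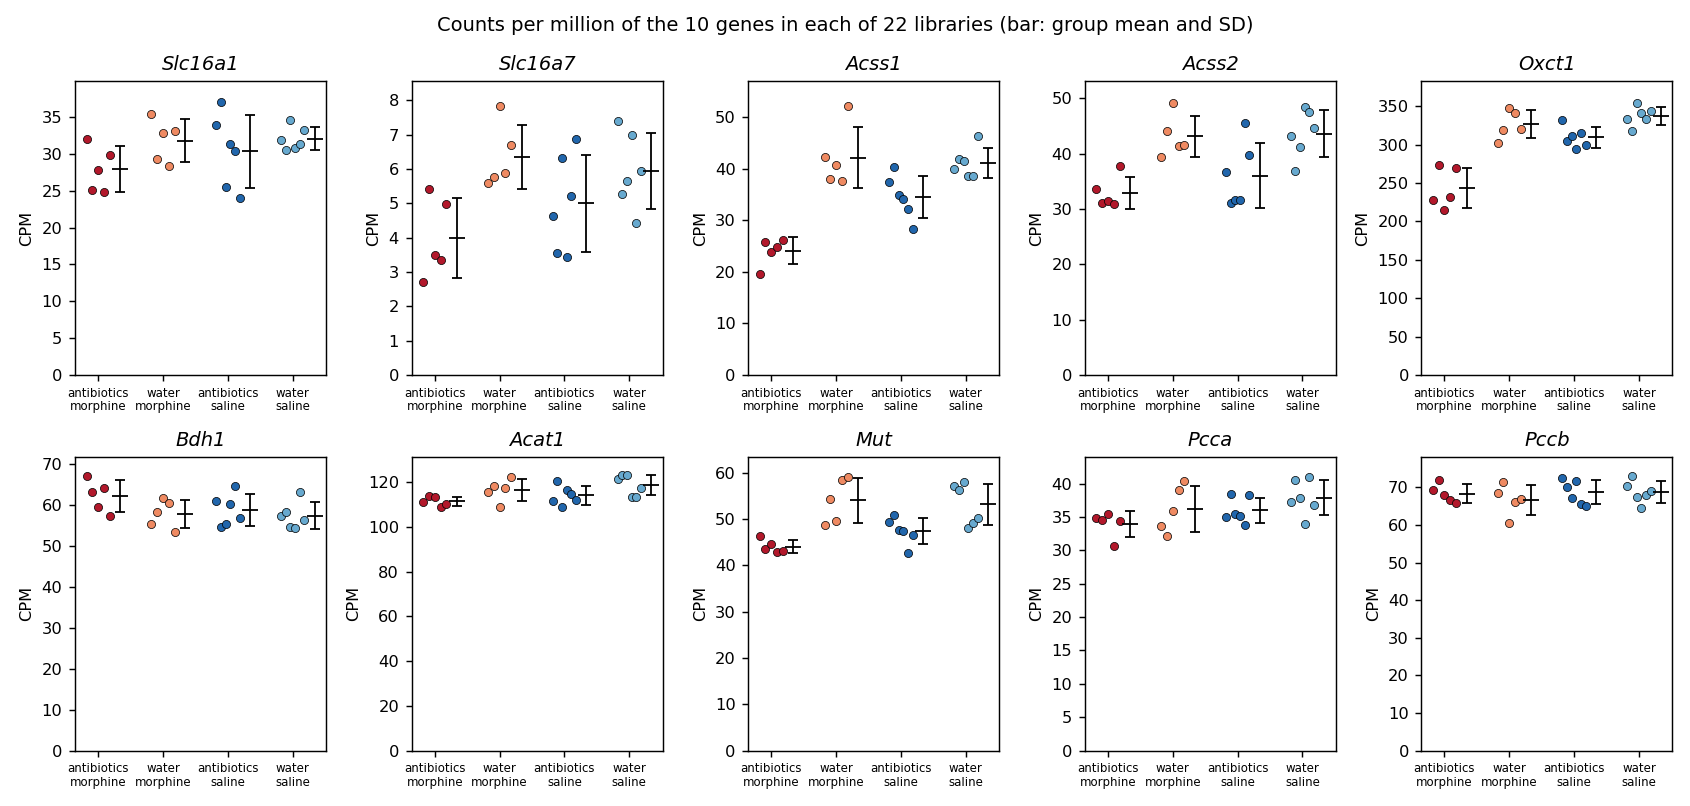
CPM of each of the 10 genes (y axis, from 0) in each of 22 libraries, by group, with the group mean and SD as a bar beside the points. For Acss1 the 5 libraries of antibiotic mice given morphine lie between 19.6 and 26.1 CPM, below every library of the other 3 groups.

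Markers of other cell types moved in the same comparison. Of 10 microglial markers 9 fell, and their summed level averaged 458 ± 33.6 CPM in antibiotic mice given morphine, against 590 ± 28.8 CPM in water mice given morphine, without overlap (two-sided exact permutation p = 0.00794, or 0.0363 after adjustment for 32 such tests). Of 10 oligodendrocyte markers 4 fell, but the summed level ran from 5093 to 5823 CPM in antibiotic mice given morphine and 5073 to 5937 CPM in water mice given morphine (exact permutation p = 0.468). Of 10 astrocyte markers 3 fell and 1 rose, with sums of 4195 to 4651 CPM in antibiotic mice given morphine and 4377 to 4771 CPM in water mice given morphine (exact permutation p = 0.190). Endothelial markers fell at 3 of 10 and rose at 1, with sums of 449 to 505 CPM in antibiotic mice given morphine and 435 to 485 CPM in water mice given morphine (exact permutation p = 0.817). No marker of these 4 lists had a mean of 0 in any group. Of 8 cortical projection neuron markers 0 were called, with a median log2 change of 0.57. Their sums averaged 573 ± 331 CPM in antibiotic mice given morphine and 303 ± 504 CPM in water mice given morphine (exact permutation p = 0.341). Of 10 striatal projection neuron markers 0 were called. Those sums averaged 5321 ± 542 CPM in antibiotic mice given morphine and 5420 ± 1008 CPM in water mice given morphine (exact permutation p = 0.849). The length slope averaged 0.044 in antibiotic mice given morphine and 0.038 in water mice given morphine (exact permutation p = 0.405). The part of these markers in the members' changes was not tested.

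The comparison of morphine with saline in antibiotic mice showed lower Acss1 and Oxct1. In edgeR 2 of 10 members were lower and 0 higher, where 6.62% of all genes were lower, 6.43% higher and 13% called either way, and the members' median log2 change was -0.11. It shares the antibiotic mice given morphine with the comparison above, so the same 5 libraries enter both. Acss1, at the levels given above with morphine, had a lowest value of 28.4, a median of 34.5 and a highest of 40.3 CPM in antibiotic mice given saline. The 5 morphine libraries all lay below the 6 saline libraries, and the log2 change was -0.52 ± 0.093 (adjusted p = 0.00102). When each library's length slope entered the model, Acss1 had a log2 change of -0.32 and was no longer called (adjusted p = 0.200, the highest over 30 alternatives, of which the lowest was 1.1e-05). Oxct1 ran from 295 through a median of 308 to 332 CPM in antibiotic mice given saline, above every morphine library of antibiotic mice. Its log2 change was -0.35 ± 0.057 (adjusted p = 0.000473), and it stayed called with the length slope in the model (-0.34, adjusted p = 0.0409). Groups without overlap, as for these 2 genes, made up 6.3% of all genes.

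The other 8 members were not called. Slc16a7 averaged 3.99 ± 1.16 CPM in antibiotic mice given morphine and 5 ± 1.42 CPM in antibiotic mice given saline (log2 change -0.32, 95% interval -0.72 to 0.09, adjusted p = 0.312). Acss2 averaged 33.0 ± 2.89 CPM with morphine and 36.0 ± 5.85 CPM with saline (-0.13, interval -0.32 to 0.07, adjusted p = 0.407). Mut averaged 44.0 ± 1.43 CPM with morphine and 47.4 ± 2.83 CPM with saline (-0.11, interval -0.24 to 0.02, adjusted p = 0.270). Overlap was seen in all 3. Bdh1 had a positive log2 change of 0.08 (adjusted p = 0.350), and Slc16a1, Acat1, Pcca and Pccb lay between -0.12 and -0.01. In the same comparison 8 of 10 microglial markers fell, with sums of 419 to 494 CPM with morphine and 503 to 620 CPM with saline (exact permutation p = 0.00433, adjusted over 32 tests 0.0231). Length slopes stood at a mean of 0.044 in the morphine libraries and -0.018 in the saline libraries (exact permutation p = 0.013, adjusted 0.0462). Antibiotic saline library 6 had a slope of 0.048, where its group's median was -0.023. It also had the highest Malat1 of all libraries (2463 CPM) and the lowest Acss1 of its group (28.4 CPM). The part of the markers and of this library's quality was not tested.

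Under saline, antibiotics left 0 of 10 members past the threshold, where 1.41% of all genes were called, 0.542% higher and 0.865% lower. No member had groups without overlap, which 1.64% of all genes had. An unadjusted p under 0.05 was reached by 4 members, all with lower means in antibiotic mice: Acss1, Acss2, Mut and Oxct1. Acss2 ran from 31.0 through a median of 34.1 to 45.6 CPM in antibiotic mice given saline, against 36.8, 43.9 and 48.5 CPM in water mice given saline. Antibiotic libraries 5 and 6 lay inside the water range, and the other 4 below it (log2 change -0.28 ± 0.089, adjusted p = 0.111). Without antibiotic library 5 Acss2 was called (-0.35, adjusted p = 0.046), and over all 30 alternatives its adjusted p ran from 0.046 to 0.295. Library 5 had the lowest summed striatal markers (3113 CPM) and the highest summed cortical markers (1490 CPM) of all 22 libraries, whose part was not tested. Acss1 ran from 28.4 through 34.5 to 40.3 CPM in antibiotic mice given saline, against 38.6, 40.8 and 46.3 CPM in water mice given saline. The groups overlapped at the edge, and the log2 change was -0.25 ± 0.087 (adjusted p = 0.137).

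Mut ran from 42.6 through 47.5 to 51.0 CPM in antibiotic mice given saline, against 48.1, 53.3 and 58.0 CPM in water mice given saline (log2 change -0.16 ± 0.060, adjusted p = 0.158). Oxct1, at the saline levels given above in antibiotic mice, ran from 318 through 338 to 354 CPM in water mice given saline (-0.12 ± 0.054, adjusted p = 0.230). The ranges overlapped for both. Slc16a7 averaged 5 ± 1.42 CPM in antibiotic mice given saline and 5.94 ± 1.10 CPM in water mice given saline (-0.25, interval -0.63 to 0.13, adjusted p = 0.509). The remaining members had log2 changes between -0.08 and 0.03. Oligodendrocyte markers fell at 8 of 10 in this comparison, with sums of 5069 to 5893 CPM in antibiotic mice given saline and 5945 to 6895 CPM in water mice given saline. Microglial markers fell at 7 of 10, with sums of 503 to 620 CPM in antibiotic mice given saline and 654 to 700 CPM in water mice given saline. Neither pair of sums overlapped (exact permutation p = 0.00216 each, adjusted 0.0173), and their part was not tested.

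In water mice, morphine moved no member past the threshold. In edgeR 0 of 10 were called, where 6.58% of all genes were, 3.91% higher and 2.67% lower. DESeq2 and limma-voom also called 0, and no member reached an unadjusted p under 0.05. Every member's groups overlapped, while 5.84% of all genes had groups without overlap. All log2 changes lay between -0.07 (Pcca) and 0.10 (Slc16a7). Acss1 averaged 42.1 ± 5.93 CPM in water mice given morphine (n = 5) and 41.2 ± 2.88 CPM in water mice given saline (n = 6; log2 change 0.03, 95% interval -0.15 to 0.22). Oxct1 averaged 326 ± 18.3 CPM in water mice given morphine and 337 ± 12.1 CPM in water mice given saline (-0.05, interval -0.16 to 0.07). For Acat1 and Pccb the intervals were -0.11 to 0.05 and -0.14 to 0.05, the narrowest of the set. Microglial markers fell at 4 of 10, with sums of 558 to 624.6 CPM in water mice given morphine and 654 to 700 CPM in water mice given saline (exact permutation p = 0.00216, adjusted 0.0173). Oligodendrocyte markers fell at 3 of 10, with sums of 5073 to 5937 CPM in water mice given morphine and 5945 to 6895 CPM in water mice given saline (exact permutation p = 0.00433, adjusted 0.0231). Endothelial markers fell at 2 of 10, with sums of 435 to 485 CPM in water mice given morphine and 477 to 565 CPM in water mice given saline (exact permutation p = 0.013, adjusted 0.0462). Length slopes averaged 0.038 in water mice given morphine and -0.051 in water mice given saline, without overlap (exact permutation p = 0.00216, adjusted 0.0173), so slope and morphine cannot be told apart here.

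**Figure D3:**
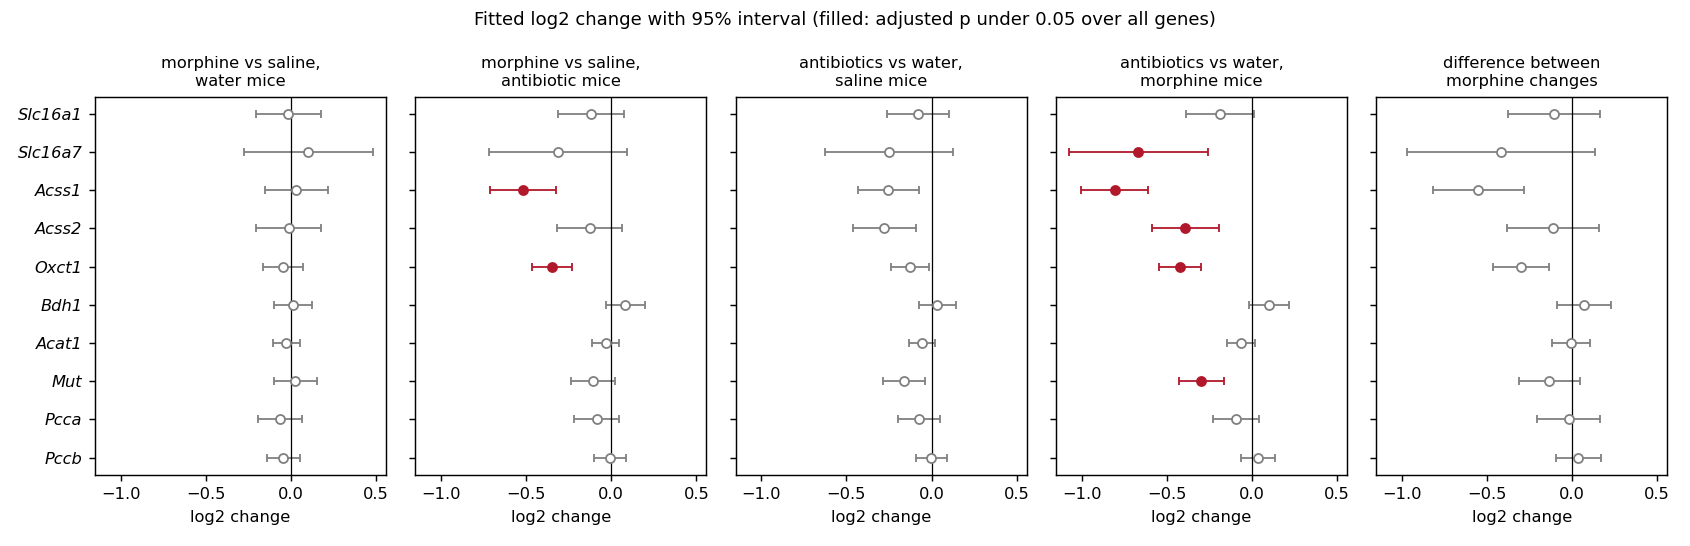
Fitted log2 change of each gene (x axis) with its 95% interval in the 4 comparisons and in the difference between both morphine changes, filled red where the adjusted p was under 0.05. In antibiotics against water under morphine 5 genes are filled, led by Acss1 at -0.80, and in morphine against saline among antibiotic mice 2.

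Whether morphine acted differently in antibiotic and water mice was tested as the difference between both morphine changes, which uses all 4 groups. In edgeR 0 of 10 members passed, where 0.467% of all genes did (0.22% positive and 0.247% negative), and 2 had an unadjusted p under 0.05. Acss1 missed the threshold narrowly, with a difference of -0.55 ± 0.129 on the log2 scale (95% interval -0.82 to -0.28, adjusted p = 0.0532). It passed in DESeq2 (adjusted p = 0.00878), which called 181 genes for this difference, against 68 in edgeR and 71 in limma-voom. Oxct1 differed by -0.30 ± 0.080 (interval -0.46 to -0.13, adjusted p = 0.10) and also passed in DESeq2 (adjusted p = 0.0266). Neither Acss1 nor Oxct1 passed in limma-voom. For Slc16a7 the difference was -0.42 with an interval of -0.97 to 0.14, and for Mut -0.13 with -0.31 to 0.05. Acss2 differed by -0.11 (interval -0.38 to 0.16). The calls of Acss2, Mut and Slc16a7 under morphine are thus not shown to differ from their changes under saline. The same held for Acss1 and Oxct1 in the main edgeR fit. Without antibiotic morphine library 5, both Acss1 and Oxct1 passed in edgeR (adjusted p = 0.0395 each). Over all 29 alternatives the adjusted p ran from 0.00878 to 0.156 for Acss1 and from 0.0266 to 0.214 for Oxct1.

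Ratios of counts between members of 1 route, taken within each library, do not depend on its scaling. They were picked after the values above were seen and are given as a description. For each count of Bdh1 there were 3.93 counts of Oxct1 in antibiotic mice given morphine (range 3.40 to 4.70), 5.64 in water mice given morphine (5.46 to 6.00), 5.28 in antibiotic mice given saline (4.88 to 5.61) and 5.90 in water mice given saline (5.28 to 6.49). Every library of antibiotic mice given morphine was below every other library. Oxct1 to Acat1 stood at 2.18 (1.89 to 2.43) in antibiotic mice given morphine, 2.81 (2.62 to 3.20) in water mice given morphine, 2.72 (2.53 to 2.97) in antibiotic mice given saline and 2.85 (2.58 to 3.01) in water mice given saline. The order was the same, again with the antibiotic mice given morphine apart.

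Mut to Pccb was 0.645 (0.603 to 0.668) in antibiotic mice given morphine, 0.811 (0.712 to 0.884) in water mice given morphine, 0.691 (0.649 to 0.726) in antibiotic mice given saline and 0.773 (0.722 to 0.860) in water mice given saline. Antibiotic mice given morphine lay below all water mice and overlapped antibiotic mice given saline. Acss1 to Acss2 was 0.734 ± 0.0989 in antibiotic mice given morphine and 0.985 ± 0.178 in water mice given morphine (SD), with overlapping ranges. For Slc16a7 to Slc16a1 the ranges of all 4 groups overlapped, with means of 0.145 in antibiotic mice given morphine and 0.201 in water mice given morphine.

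**Figure D4:**
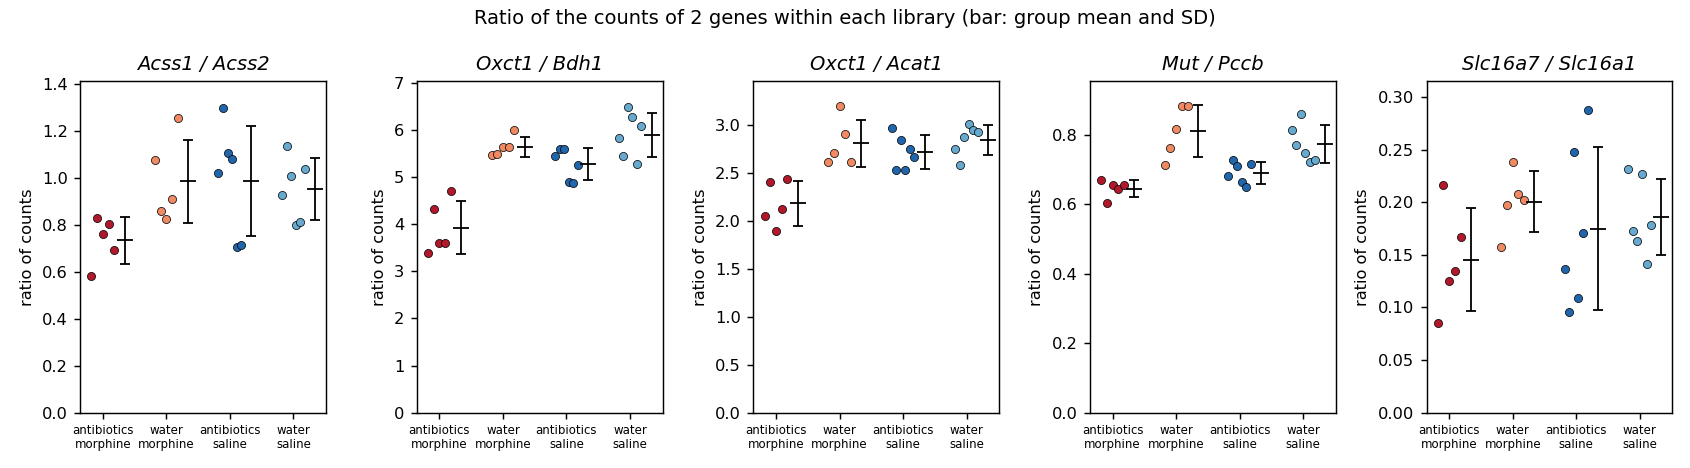
Ratio of the counts of 2 genes within each library (y axis, from 0) by group, with the group mean and SD as a bar beside the points. The ratio of Oxct1 to Bdh1 is lowest in antibiotic mice given morphine, with a mean of 3.93, and 5.28 to 5.90 in the other 3 groups.

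Beyond the members, 47 other genes of these routes were examined, of which 35 were kept by the filter. In antibiotics against water under morphine 6 of the 35 fell and 1 rose, where 9.58% of all genes were lower and 8.42% higher. The share called either way was close to the 18% of all genes. Hadha, a subunit of the mitochondrial trifunctional protein of beta-oxidation, averaged 74.6 ± 4.62 CPM in antibiotic mice given morphine and 89.7 ± 3.53 CPM in water mice given morphine (log2 change -0.27, adjusted p = 0.00142). Mmaa, which guards the cobalamin loading of the Mut enzyme, averaged 14.9 ± 1.62 CPM in antibiotic mice given morphine and 19.2 ± 0.892 CPM in water mice given morphine (-0.36, adjusted p = 0.00223). Both genes had groups without overlap, as did Hibch, Aldh6a1 and Bsg below but not Etfdh. In this comparison 13.1% of all genes tested had such groups. Hibch, an enzyme of valine breakdown toward propionyl-CoA, averaged 12.9 ± 1.03 CPM in antibiotic mice given morphine and 17.1 ± 1.74 CPM in water mice given morphine (-0.41, adjusted p = 0.00437). Aldh6a1, which makes propionyl-CoA at the end of that pathway, rose to 67.5 ± 4.44 CPM in antibiotic mice given morphine, against 56.6 ± 3.19 CPM in water mice given morphine (0.25, adjusted p = 0.0168). Genes of valine breakdown thus moved in both directions. Etfdh, which passes electrons of beta-oxidation to ubiquinone, had a log2 change of -0.20 (adjusted p = 0.0181) and Bsg, the partner protein that carries MCT1 to the cell surface, of -0.16 (adjusted p = 0.0231). The count of 7 called dropped to 4 without water morphine library 6 or antibiotic morphine library 1.

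Bsg was lower in each of the 4 comparisons, which share their groups in pairs. Its levels ran from 297 to 323 CPM in antibiotic mice given morphine, 333 to 364 CPM in water mice given morphine, 333 to 395 CPM in antibiotic mice given saline and 388 to 427 CPM in water mice given saline. The log2 change was -0.21 for morphine in antibiotic mice (adjusted p = 0.00527), -0.22 for morphine in water mice (adjusted p = 0.00775) and -0.17 for antibiotics under saline (adjusted p = 0.048). The last call, the only 1 of the list in that comparison, was lost when any of 18 of the 22 libraries was left out. For morphine in antibiotic mice 5 of 35 genes of the list fell and 1 rose, where 6.62% of all genes were lower and 6.43% higher. Besides Bsg these were Mmaa (-0.36), Hadha (-0.21), Mcee (-0.27), the epimerase ahead of Mut, Suclg1 (-0.14), a subunit of succinyl-CoA ligase, and Aldh6a1, which rose (0.22). With the length slope in the model 1 gene of the list was called, and without antibiotic saline library 1 the count was 3. In water mice 2 of 35 fell with morphine, Bsg and Suclg1 (-0.17, adjusted p = 0.014), where 2.67% of all genes were lower, and 0 with the length slope in the model. There the marker sums and slopes given above for water mice moved too, and their part was not tested. The difference between both morphine changes passed for 0 of 35 genes in edgeR, with 2 at an unadjusted p under 0.05.

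**Figure D5:**
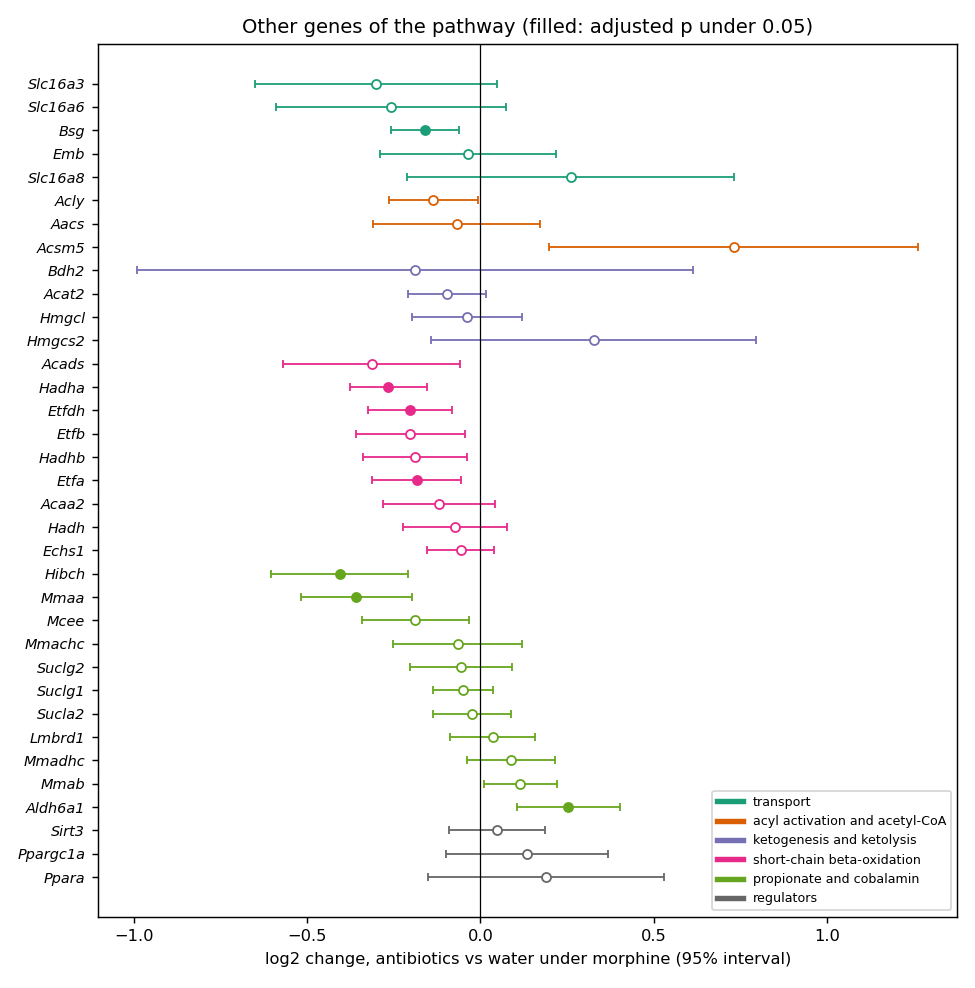
Fitted log2 change with 95% interval (x axis) for the 35 tested genes of the pathway list in antibiotics against water under morphine, coloured by sublist, filled where the adjusted p was under 0.05. Of the 7 filled genes 6 lie left of 0 and Aldh6a1 lies right, at 0.25.

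The filter removed 12 genes of that list, none with more than 15 counts in a library. They were the receptors of short-chain fatty acids, lactate and ketones Ffar2, Ffar3, Hcar1, Hcar2 and Olfr78, the sodium-coupled carriers Slc5a8 and Slc5a12, and Acss3, Acsm3, Acot12, Oxct2a and Oxct2b. Their mean levels were at most 0.469 CPM, and the receptors had at most 10 counts in a library and 0.29 CPM on average. With the filter in place none of the 12 was tested for a change.

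Genes whose pattern over the 22 libraries was most like that of a member are given for the 3 members with the smallest p, by Pearson's r of log2 CPM, as a description over libraries that share groups and sequencing. For Acss1 they were Asrgl1 (r = 0.946), Sfxn5 (0.944) and Arhgef19 (0.933). After the group means were removed these were 0.780, 0.713 and 0.605. For Oxct1 they were Tomm40l (0.962), Serpinh1 (0.955) and Emp2 (0.947), with 0.785, 0.727 and 0.788 within groups. For Mut they were Vcam1 (0.873), Papss2 (0.872) and Grm3 (0.866), with 0.657, 0.811 and 0.611 within groups. Each was lower within groups than over all libraries, a fall that picking the highest r over all libraries favours.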

How the data were processed

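RNA of the nucleus accumbens was extracted with TRIzol, copied with the SMARTer kit and fragmented by sonication, per the labels' protocols. Reads were aligned with STAR 2.4.0, and FastQC and edgeR were also used, per the submitters' processing notes. Not given in the sources used here are the genome build, the annotation and the strand setting, so a gene and its antisense or overlapping partner cannot be told apart. The authors deposited raw read counts per gene, used throughout, and a table of normalised signal, not used here. Between 20.6% and 26.4% of a library's counts lay outside genes and were removed, which left 24061 genes.

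In R 4.3.3 with edgeR 4.0.16, genes were kept with filterByExpr by group, scaled by TMM and fitted in a 4-group robust quasi-likelihood model of all 22 libraries. Tests were two-sided, with Benjamini-Hochberg adjustment over all 14564 genes and a threshold of 0.05. CPM were averaged as mean ± SD, and log2 changes carry a standard error and a 95% interval. Length was that of the longest coding transcript in GENCODE vM21, known for 95.4% of kept genes. It was used for levels per kb and the length slope. Library measures were compared with exact permutation tests.

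The members, the pathway and marker lists and the naming rule were chosen with earlier results of these data known. The rule names all 10 members, up to 6 pathway genes past the threshold per comparison by smallest p, pathway genes the filter removed, and the 3 genes most like each of 3 members. Alternatives were DESeq2 1.42.0 (test and size factors), limma 3.58.1 with voom, no filter, only the groups compared, replicate number as block, the length slope as covariate and leaving out each library. Leaving out the 2 libraries highest in Malat1, antibiotic saline library 6 and antibiotic morphine library 4, was added after seeing the data. Within groups, the 50 pairs of libraries varied 3.17 to 23.0 times as much as repeat sequencing would give, so none was counted as a duplicate. The fits were also tested on simulated counts, but the outcome is not given here and is not used as support. Gene counts per library bound the precision, and Slc16a7, with as few as 30 counts, was the least precise member. Labels give no batch.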

Additional observations from a re-analysis of the deposited data

Results flagged for a closer look

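Of the 40 sets of libraries examined (10 genes in 4 groups), 1 held a library far from the others. Pcca in antibiotic mice given morphine stood at 30.6 CPM in library 4, while the other 4 libraries lay between 34.4 and 35.5 CPM, so the gap made up 0.779 of the group's whole range. Chance gives about 1 such library in 20 groups. Pcca was not called in any comparison.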

How the results depend on the processing

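The 5 members called lower under morphine in antibiotic against water mice stayed called with DESeq2, DESeq2 size factors, limma-voom, no filter, only the groups compared, the length slope as covariate and without the 2 libraries highest in Malat1. With the replicate block 4 were called, since Slc16a7 was lost (adjusted p = 0.0811), and leaving out each library gave 4 to 5. Morphine in antibiotic mice called 2 members in every fit but that with the length slope, which called 1, Oxct1; the cause was not tested. The difference between both morphine changes called 0, but 1 (Acss1) with DESeq2 size factors, with the length slope or without the 2 libraries highest in Malat1, 2 with the DESeq2 test, and 0 to 2 when each library was left out in turn. It was 2 without antibiotic morphine library 5 and 1 without water saline library 9, antibiotic saline library 6, water morphine library 5 or antibiotic morphine library 2; the cause was not tested. Antibiotics under saline gave 0 to 1, the 1 being Acss2 without antibiotic saline library 5. Morphine in water mice called 0 in all fits run. No called log2 change turned its sign, and with the length slope 18 of 50 log2 changes moved by more than their standard error without a change of call.

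Over all genes, the length slope left 0 called for morphine in water mice, 138 for morphine in antibiotic mice and 45 for antibiotics under saline. DESeq2 called 420 for antibiotics under saline and 181 for the difference. Only the groups compared gave 1187 for morphine in antibiotic mice and 67 for antibiotics under saline. The replicate block gave 281 for morphine in water mice, 105 for antibiotics under saline and 10 for the difference. Without the 2 libraries highest in Malat1, antibiotics under saline gave 74. Leaving out each library gave 509 to 1118, 1084 to 2048, 48 to 409, 1877 to 2824 and 28 to 100 for the comparisons in the order morphine in water mice, morphine in antibiotic mice, antibiotics under saline, antibiotics under morphine and the difference. Of 25 pairs of libraries with the same number 8 correlated above 0.1 (range -0.478 to 0.353) and 4 of 22 libraries correlated best with their own number, so the numbers do not pair the libraries. The block changed no other call of a member. Depth limits Slc16a7, with 30 to 120 counts, and the receptors, with at most 10.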

Other observations

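Beside the pathway genes that the naming rule gives, 2 others were picked after their values were seen. Etfa, a subunit of the electron carrier of beta-oxidation, averaged 26.1 ± 0.658 CPM in antibiotic mice given morphine and 29.7 ± 1.03 CPM in water mice given morphine (SD, n = 5 each). It was the 7th of the called genes by p, with a log2 change of -0.18 and an adjusted p = 0.0437 in edgeR. Acsm5, of the medium-chain acyl-CoA synthetase family, averaged 2.51 ± 0.303 CPM in antibiotic mice given morphine and 1.49 ± 0.446 CPM in water mice given morphine. All 5 antibiotic libraries lay above all 5 water libraries, but the gene missed the threshold (log2 change 0.73, adjusted p = 0.0505 in edgeR).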
